A study of Rattus norvegicus with 6 samples.

Results

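The insulin-like growth factor (IGF) system was examined in NRK-52E cells, an established line of rat kidney epithelial cells, after exposure to streptozotocin (STZ), a glucose-linked alkylating agent. It was represented by 10 genes chosen by their symbols, 3 receptors, 2 receptor substrates and 5 secreted binding proteins, and each had 1 row among the 18930 genes of the deposited count table. RNA was sequenced from 3 libraries of cells kept for 24 h in 10 mM STZ (STZ) and 3 libraries of vehicle-treated cells (Control), and all 6 came from the same wild-type line. The sources used here do not say whether the libraries of a group were separate cultures. The p-values therefore measure the spread between these libraries, which may be technical. In edgeR's tests of single genes that spread was partly pooled over all genes tested.

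In the IGF system, the ligands IGF1 and IGF2 bind the IGF1 receptor, a tyrosine kinase closely related to the insulin receptor, and the activated receptors phosphorylate the substrates IRS1 and IRS2, which recruit PI3K and lead to AKT and mTORC1. The IGF2 receptor, also the cation-independent mannose 6-phosphate receptor, clears IGF2 and sorts lysosomal enzymes. The secreted IGF-binding proteins hold IGFs in the extracellular fluid and either withhold them from the receptor or deliver them to it, and they are cut by proteases. In the kidney the proximal tubule takes up and responds to insulin and IGF1.

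Total counts were between 10430924 and 15191349 per library, and the 10 genes together took 9639 to 12820 reads, or 0.0844% to 0.0924% of each library. The STZ libraries were on the whole deeper than the Control libraries, and counts were therefore scaled by edgeR's TMM method to a common depth, here called normalized read counts. Any pair of libraries within a group showed spread above pure counting error (chi-square per degree of freedom of at least 1.85), so each was counted once. Of the epithelial markers, Krt8 had 11691 to 24040 reads per library and was 1.40-fold higher with STZ. Cdh1 had 16 to 35 and was lower with STZ (0.619-fold), and Krt7 had 13 to 19 and did not pass the test (adjusted p = 0.7 by edgeR). Krt18 had at most 3 reads, Pax8 at most 4, and Cldn4 had 0 in Control and 3 to 4 in STZ. Epcam and Krt19 were not analysed here. Of 6 proximal tubule markers, 4 had fewer than 10 reads in every library, Cubn had at most 10, and Aqp1, the only one tested, was lower with STZ (0.419-fold), the summed normalized count of the list being 123 to 206 in Control and 71.5 to 85.1 in STZ. Of 3 leukocyte markers measured, Ptprc had at most 1 read, Cd3e at most 4 and Cd68, the only one tested, 7 to 29 without passing the test (adjusted p = 0.279 by edgeR), and all 4 endothelial markers stayed under 10. Of 6 fibroblast or mesenchymal markers measured, Col1a1, Col3a1 and Pdgfrb passed the filter on low counts and all 3 were lower with STZ, the summed normalized count of the list being 1241 to 1384 in Control and 699 to 832 in STZ, whereas Col1a2, Pdgfra and Lum had at most 4 reads. The part of these differences in the results below was not tested.

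Promoter sequences are shown for the 3 genes of the system whose transcripts changed. They are taken from the annotation, and which start sites the cells used was not measured. Each line gives the 250 bases before the RefSeq transcription start, written 5′ to 3′ on the strand of the gene, in the GRCr8 build, which is not the Rnor6 build to which the reads were mapped. Capitals mark matches on either strand to any of 6 motifs. The TATA box was searched with the letters TATAAA. For the GC box, which Sp1-type factors bind, the letters were GGGCGG. An E-box was a match to CACGTG, and the pentamer CCAAT was searched as it stands. The core bound by FoxO factors was written GTAAACA, and the p53 half-site was searched by its consensus.
Igfbp4, chr10:84491221-84491470, plus strand: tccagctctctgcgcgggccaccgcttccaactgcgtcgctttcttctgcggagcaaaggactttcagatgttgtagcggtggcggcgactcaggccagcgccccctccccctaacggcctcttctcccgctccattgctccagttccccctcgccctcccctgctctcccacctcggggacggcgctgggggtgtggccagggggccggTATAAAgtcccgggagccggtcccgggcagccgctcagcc
Irs1, chr9:91053960-91054209, minus strand: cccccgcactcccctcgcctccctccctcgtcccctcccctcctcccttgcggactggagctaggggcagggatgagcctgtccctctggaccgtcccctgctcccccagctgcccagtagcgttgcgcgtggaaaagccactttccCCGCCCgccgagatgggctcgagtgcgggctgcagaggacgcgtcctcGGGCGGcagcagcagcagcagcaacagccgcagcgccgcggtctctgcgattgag
Igfbp5, chr9:81914188-81914437, minus strand: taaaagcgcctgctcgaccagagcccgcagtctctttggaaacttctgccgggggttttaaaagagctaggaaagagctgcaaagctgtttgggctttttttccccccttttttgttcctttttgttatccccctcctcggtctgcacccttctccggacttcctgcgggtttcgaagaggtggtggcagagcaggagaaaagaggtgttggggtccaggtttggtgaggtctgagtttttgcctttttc
The Igfbp4 stretch held 1 TATA box, which began 40 bases before the start site and is a match present in 14.2% of the 33465 rat promoters of the same 300-base length. The Irs1 stretch held 2 GC boxes, beginning 55 and 103 bases before the start site, and a further one lay after the start, a motif present in 33.1% of promoters. In the Igfbp5 stretch none of the 6 motifs was found. Of the 10 genes, 9 had a promoter entry. Over the 300-base windows, which end 50 bases after the start site, a TATA box was found in 1 of the 9, a GC box in 4, CCAAT in 0 (against 37.5% of all promoters), an E-box in 3 (Igf1r, Igf2r and Igfbp2, against 6.42% of all promoters), a FoxO core in 2 (Insr and Igfbp6, against 3.78%) and a p53 half-site in 0 (against 7.98%). The share of G and C in the 9 windows was 50.7% (Igfbp5) to 78% (Igf1r), beside a median of 51.7% over all promoters. The motif shares were not matched for this difference in composition. A match describes the letters of a window and is not evidence that a factor binds there, and a window without a match says only that these letters are not in it.

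With STZ, transcripts of 1 of the 2 receptor substrates fell, those of 2 binding proteins changed in opposite directions, and those of the 3 receptors did not pass the test. Of the 10 genes, 9 passed the filter on low counts and entered edgeR's quasi-likelihood test (p-values adjusted by Benjamini and Hochberg over all genes tested), in which 1 rose (Igfbp4), 2 fell (Irs1 and Igfbp5) and 6 did not pass an adjusted p-value of 0.05. That is 3 of 9, or 33.3%, beside 50.9% of the 11870 genes tested (25.9% higher and 25.1% lower). With only 9 genes, very few calls move this share greatly, and the difference was not tested. None of the 9 reached an absolute log2 fold change of 1, the second threshold of the study, which 3.37% of all genes tested passed together with the first. The median log2 fold change of the 9 genes was -0.05, and that of all genes tested was -0.01. In the same 3 genes the STZ and Control libraries did not overlap, compared with 56.3% of all genes tested. In bulk RNA, fewer cells that express a gene and less RNA per cell cannot be told apart.

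**Figure D1:**
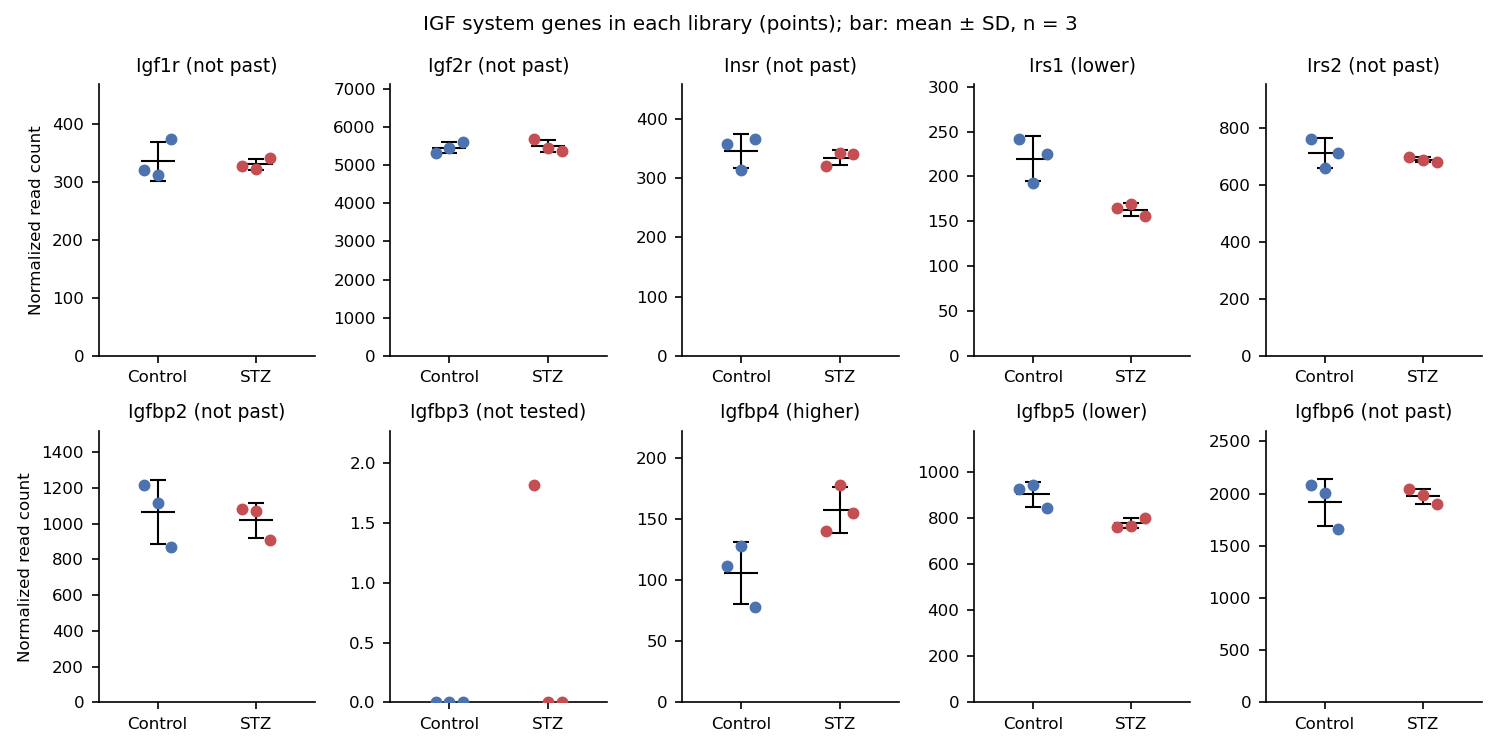
Normalized read counts (y axis, starting at 0 and scaled for each gene) of the 10 genes in the 3 Control libraries (blue) and the 3 STZ libraries (red), with the mean and SD of each group of 3, and in brackets the direction of a call at an adjusted p-value of 0.05, "not past" for no call. The groups are separate for Irs1, Igfbp4 and Igfbp5 and overlap for the other tested genes, and Igfbp3, shown without mean or SD, has reads in 1 library only.

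The receptors are described first. Igf1r, which encodes the IGF1 receptor, had 320, 312 and 374 normalized counts in the Control libraries and 328, 322 and 341 in the STZ libraries. The STZ values lay inside the Control range. Its log2 fold change was -0.03, with a 95% confidence interval from -0.18 to 0.13 (adjusted p = 0.808 by edgeR).

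Insr, encoding the insulin receptor, had 357, 314 and 366 normalized counts in Control and 320, 342 and 341 in STZ. All STZ values were again within the Control range, and the log2 fold change was -0.05 (95% confidence interval -0.21 to 0.10, adjusted p = 0.594 by edgeR). The ratio of Igf1r to Insr reads within a library, which does not depend on scaling, was 0.970 ± 0.0664 in Control (SD, n = 3) and 0.988 ± 0.0440 in STZ (SD, n = 3).

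Igf2r, the IGF2 and mannose 6-phosphate receptor, carried the most reads of the 10 genes, with 4521 to 6470 per library, and therefore had the narrowest interval. Its normalized counts were 5311, 5454 and 5615 in Control and 5690, 5437 and 5379 in STZ. The groups overlapped, and the log2 fold change was 0.01 (95% confidence interval -0.06 to 0.09, adjusted p = 0.831 by edgeR). In the GRCr8 annotation the spans of Igf1r, Igf2r, Insr and Igfbp4 overlap long non-coding RNA genes. The span of Igf1r also overlaps the protein-coding gene Pgpep1l, and that of Igf2r a small nucleolar RNA gene. Whether strand was used in counting is not given in the sources used here, so the reads of such pairs may not be fully separated.

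**Figure D2:**
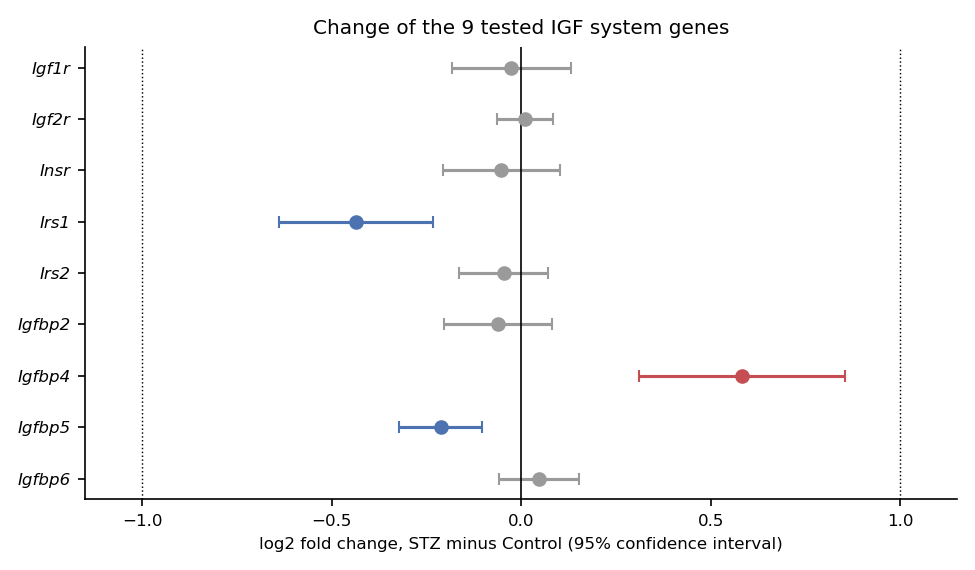
Log2 fold change between STZ and Control (x axis) of the 9 tested genes, with 95% confidence intervals from edgeR's quasi-likelihood fit, in red for higher, blue for lower and grey for genes not past an adjusted p-value of 0.05. The intervals of Irs1 (-0.64 to -0.23), Igfbp5 (-0.32 to -0.10) and Igfbp4 (0.31 to 0.85) do not include 0, and none of the 9 intervals reaches the dotted lines at an absolute log2 fold change of 1.

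Below the receptors, the main docking proteins gave different values. Irs1, the insulin receptor substrate that couples IGF1 and insulin receptors to PI3K, had 242, 193 and 225 normalized counts in Control and 165, 169 and 156 in STZ. Every STZ library was lower than every Control library. Its mean was 220 ± 25.1 in Control (SD, n = 3) and 163 ± 6.88 in STZ (SD, n = 3), and its log2 fold change was -0.44 with a standard error of 0.10 and, by edgeR, an adjusted p of 0.000365, that is 0.739-fold. This absolute change was larger than that of 81.5% of the genes tested.

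Irs2, its closest relative, had 762, 658 and 714 normalized counts in Control and 699, 688 and 680 in STZ. The STZ libraries lay inside the Control range, and the log2 fold change was -0.05 (95% confidence interval -0.16 to 0.07, adjusted p = 0.527 by edgeR). Within each library the ratio of Irs2 to Irs1 reads was 3.15, 3.42 and 3.17 in Control and 4.24, 4.07 and 4.37 in STZ. The ratio was thus higher in all STZ libraries, by 1.30-fold, with a two-sided exact permutation p of 0.1, the smallest that 3 against 3 libraries allow. This pair was among 5 ratios of related genes chosen after the values had been seen, and the adjusted exact permutation p over the 5 was 0.167. Read numbers of different genes depend on transcript length, which was not used here, so only the change of a ratio between groups is given a meaning.

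**Figure D3:**
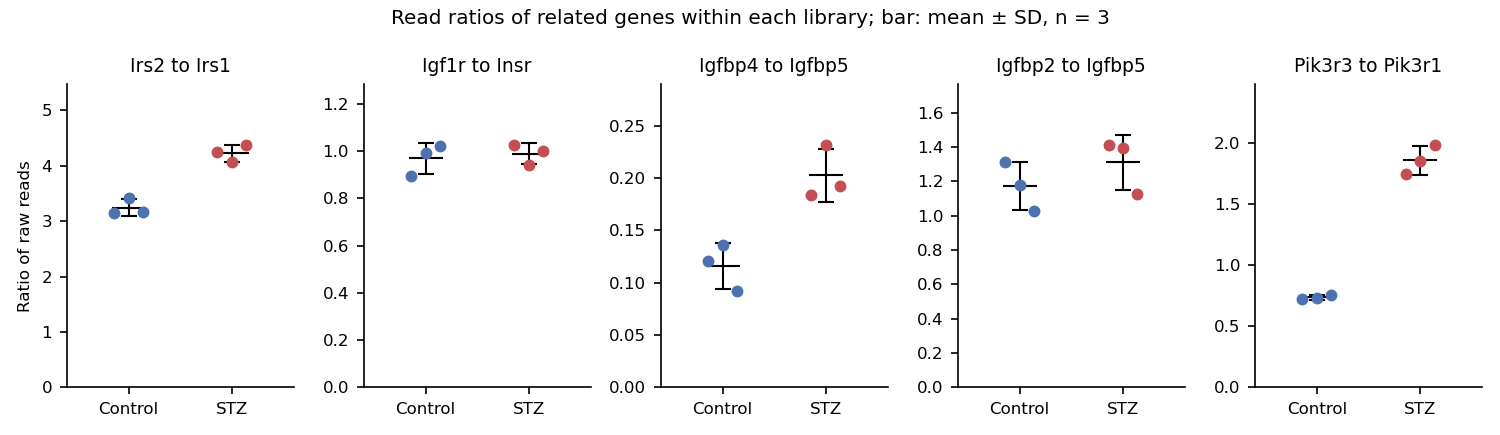
Ratio of the raw reads of related genes within each library (y axis, starting at 0 and scaled for each pair) in Control (blue) and STZ (red), with the mean and SD of each group of 3. The ratios of Irs2 to Irs1, Igfbp4 to Igfbp5 and Pik3r3 to Pik3r1 are higher in every STZ library than in any Control library, whereas those of Igf1r to Insr and Igfbp2 to Igfbp5 overlap between the groups.

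Among the binding proteins, Igfbp4 rose, Igfbp5 fell, Igfbp2 and Igfbp6 did not pass the test and Igfbp3 was hardly detected. Igfbp4 encodes a binding protein known mainly as an inhibitor of IGF action that is released from IGFs when cut by the protease PAPP-A. It had 95, 113 and 80 reads in Control and 155, 164 and 186 in STZ, which gave 112, 128 and 77.7 normalized counts in Control and 140, 178 and 155 in STZ. Every STZ library was higher than every Control library. The log2 fold change was 0.58 with a standard error of 0.13 and, by edgeR, an adjusted p of 0.00035, a rise of 49.8% with a 95% confidence interval from 1.24-fold to 1.81-fold. The size of this rise depended on Control replicate 3, the lowest library, since without it the log2 fold change was 0.38 (adjusted p = 0.0154 by edgeR), and over the 6 fits that each left out 1 library it ranged from 0.38 to 0.74.

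Igfbp5, a binding protein that also attaches to the extracellular matrix, had 926, 944 and 844 normalized counts in Control and 765, 767 and 803 in STZ. All STZ libraries were below all Control libraries, though the highest STZ library was close to the lowest Control library. The log2 fold change was -0.21 with a standard error of 0.05 and, by edgeR, an adjusted p of 0.00102, that is 0.863-fold. This absolute change was near the middle of the genes tested, being larger than that of 54.5% of them. The ratio of Igfbp4 to Igfbp5 reads was 0.121, 0.136 and 0.0922 in the Control libraries and 0.184, 0.232 and 0.193 in the STZ libraries, a 1.76-fold higher ratio (two-sided exact permutation p = 0.1, adjusted 0.167).

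Igfbp2, which lies next to Igfbp5 on rat chromosome 9 and binds IGF2 well, had 1214, 1114 and 869 normalized counts in Control and 1080, 1070 and 905 in STZ. In both groups replicate 3 was the lowest, and the groups overlapped. With all 6 libraries the log2 fold change was -0.06 (95% confidence interval -0.20 to 0.08, adjusted p = 0.488 by edgeR). Over the 6 fits that each left out 1 library it ranged from -0.20 to 0.04. Only the fit without Control replicate 3 passed the test (-0.20, adjusted p = 0.0054 by edgeR). Without STZ replicate 3 the value was 0.02. Both the sign and the call of Igfbp2 thus depended on which library was left out. The ratio of Igfbp2 to its neighbour Igfbp5 was 1.17 ± 0.141 in Control (SD, n = 3) and 1.31 ± 0.160 in STZ (SD, n = 3), and overlapped between the groups (two-sided exact permutation p = 0.3).

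Igfbp6, a binding protein with a marked preference for IGF2, had 2080, 2008 and 1661 normalized counts in Control and 2043, 1983 and 1899 in STZ. The groups overlapped, and the log2 fold change was 0.05 (95% confidence interval -0.06 to 0.15, adjusted p = 0.472 by edgeR). Summed over the 5 binding proteins, the normalized counts were 4331, 4194 and 3451 in Control and 4030, 3997 and 3762 in STZ. The sums overlapped, with means of 3992 ± 474 and 3930 ± 146 (SD, n = 3 each), and differed by less than the spread between libraries. Of the reads of the 5 genes in a library, Igfbp4 took 2.63% ± 0.403 in Control and 4.01% ± 0.487 in STZ, and Igfbp5 took 22.8% ± 1.55 and 19.8% ± 1.32 (SD, n = 3 each). The share of Igfbp6 was 48.0% ± 0.125 and 50.3% ± 0.572 (SD, n = 3 each), so that this gene, which did not pass the test by its level, took a larger share in each STZ library than in any Control library.

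Igfbp3, the main carrier of IGFs in serum and a gene known to be induced by p53 in other cells, had 2 reads in STZ replicate 1 and 0 in each of the other 5 libraries. A count of 0 allows up to 3 reads, which corresponded to 0.236 to 0.288 CPM in the Control libraries, counting error only. It was removed by the filter on low counts, and without a filter its unadjusted p was 0.236 (adjusted p = 0.423, edgeR). A change of Igfbp3 within the range of these few reads was not detectable at this depth.

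**Figure D4:**
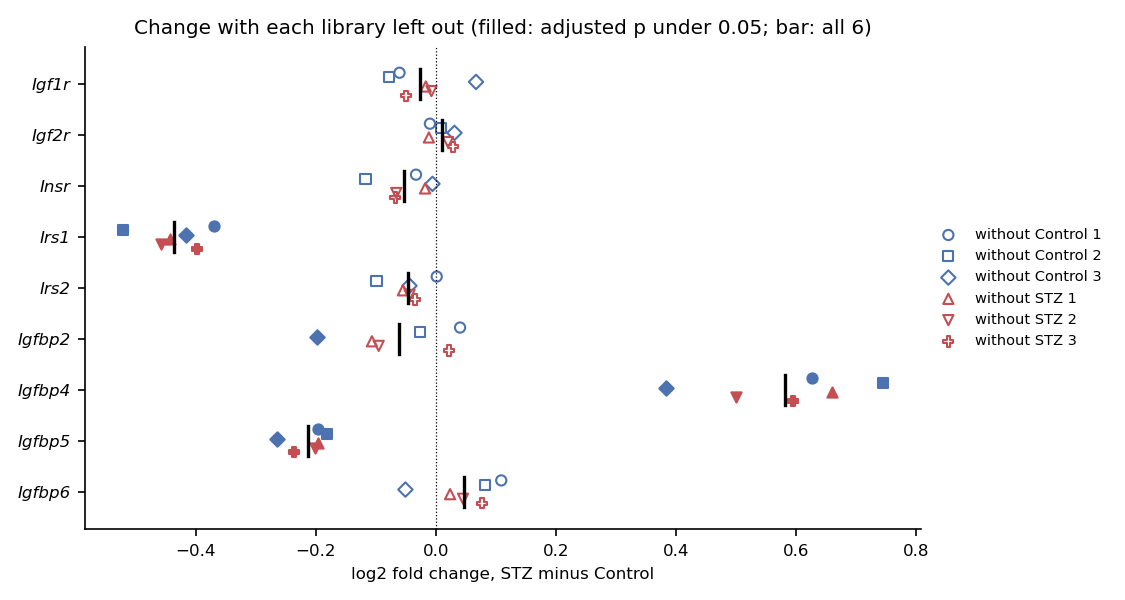
Log2 fold change between STZ and Control (x axis) of the 9 tested genes in fits that each left out 1 of the 6 libraries, with filled symbols for an adjusted p-value under 0.05, blue for a Control and red for an STZ library left out, and a bar for the fit with all 6. Irs1, Igfbp4 and Igfbp5 keep their direction and stay filled in all 6 fits, and Igfbp2 is filled only without Control replicate 3.

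The remaining genes of the pathway were taken from a list of 71 genes, of which 64 had a row in the table and 58 passed the filter. Of these 58, 18 rose, 12 fell and 28 did not pass the test, so that 51.7% were called against 50.9% of all genes tested, and none reached an absolute log2 fold change of 1. Their median log2 fold change was -0.02, from -0.84 for Grb10 to 0.87 for Pik3r3. The pathway as a list was therefore changed about as often as other genes, and its members moved in both directions. Of the pathway genes named by rule for their change, Igfbp7, Htra1, Igf2bp2, Pik3r3, Pik3cd and Mlst8 overlap other annotated genes, with the same limit on separating reads as above.

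The ligands were at the limit of detection. Igf1 had 1 read in Control replicate 3, 1 in STZ replicate 3 and 0 elsewhere, and Igf2 had 2 reads in Control replicate 2 and 0 elsewhere. Neither passed the filter, and Ins1 and Ins2 were not analysed here. Of the other binding proteins, Igfbp1 and Igfbpl1 were not analysed here, and Igfals, which forms the ternary complex of IGFs in serum, had at most 1 read per library. Igfbp7, a related secreted protein that binds IGFs weakly, rose from 742 ± 26.7 normalized counts in Control to 874 ± 49.1 in STZ (SD, n = 3 each), a log2 fold change of 0.23 (adjusted p = 0.000453 by edgeR).

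Of the proteases that cut binding proteins and their inhibitors, 2 of the 5 measured were tested. Htra1, a secreted serine protease, had 194, 212 and 203 normalized counts in Control and 319, 319 and 300.2 in STZ. All STZ libraries were higher, with a log2 fold change of 0.62 with an edgeR standard error of 0.09 and an adjusted p of 5.55e-08. Stc2, an inhibitor of PAPP-A, had 16.1 ± 8.07 normalized counts in Control and 11.4 ± 1.08 in STZ (SD, n = 3 each) and did not pass the test (adjusted p = 0.326 by edgeR). Pappa2, Stc1 and Htra3 had too few reads to be tested.

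The 3 IGF2 mRNA-binding proteins, which bind and stabilize the messenger RNA of IGF2 and of many other genes, all passed the test in different directions. Igf2bp2 rose from 228 ± 34.2 to 352 ± 18.0 normalized counts (SD, n = 3 each), a log2 fold change of 0.62 (adjusted p = 1.3e-07 by edgeR). Igf2bp1 rose by a log2 fold change of 0.35, whereas Igf2bp3 fell from 975 ± 26.2 to 817 ± 62.0 (SD, n = 3 each), a log2 fold change of -0.25. All 3 had groups that did not overlap, where 50.9% of all genes tested were called and 56.3% did not overlap.

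Among the 8 adaptors tested, 3 rose, 1 fell and 4 did not pass the test, so that 50% were called, near the 50.9% of all genes tested. Sh2b1, an adaptor that enhances insulin and IGF1 receptor signaling, had 807, 826 and 813 normalized counts in Control and 1129, 1207 and 1152 in STZ. Its log2 fold change was 0.51 with an edgeR standard error of 0.05 and an adjusted p of 1.46e-11. Gab2, a docking protein, and Shc1, which links receptors to the Ras pathway, rose with log2 fold changes of 0.40 and 0.36. The adaptor that fell was Gab1, with a log2 fold change of -0.30, and it is named here after its values had been seen.

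Of 12 genes that restrain the receptors, 3 rose, 4 fell and 5 did not pass the test, a called share of 58.3% against 50.9% of all genes tested. Grb10, an adaptor that binds the insulin and IGF1 receptors and inhibits them, had 1472, 1499 and 1531 normalized counts in Control and 879, 827 and 809.8 in STZ. Its fall was the largest in the pathway list, with a log2 fold change of -0.84 with an edgeR standard error of 0.05 and an adjusted p of 1.04e-18, that is 0.558-fold. Socs3, which blocks receptor signaling and targets IRS proteins for degradation, fell from 991 ± 22.2 to 716 ± 8.36 normalized counts (SD, n = 3 each), a log2 fold change of -0.47. Ptpn1, the phosphatase that removes phosphate from the insulin receptor, instead rose from 726 ± 39.7 to 991 ± 27.2 (SD, n = 3 each), a log2 fold change of 0.45, so the inhibitors did not move as a group.

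**Figure D5:**
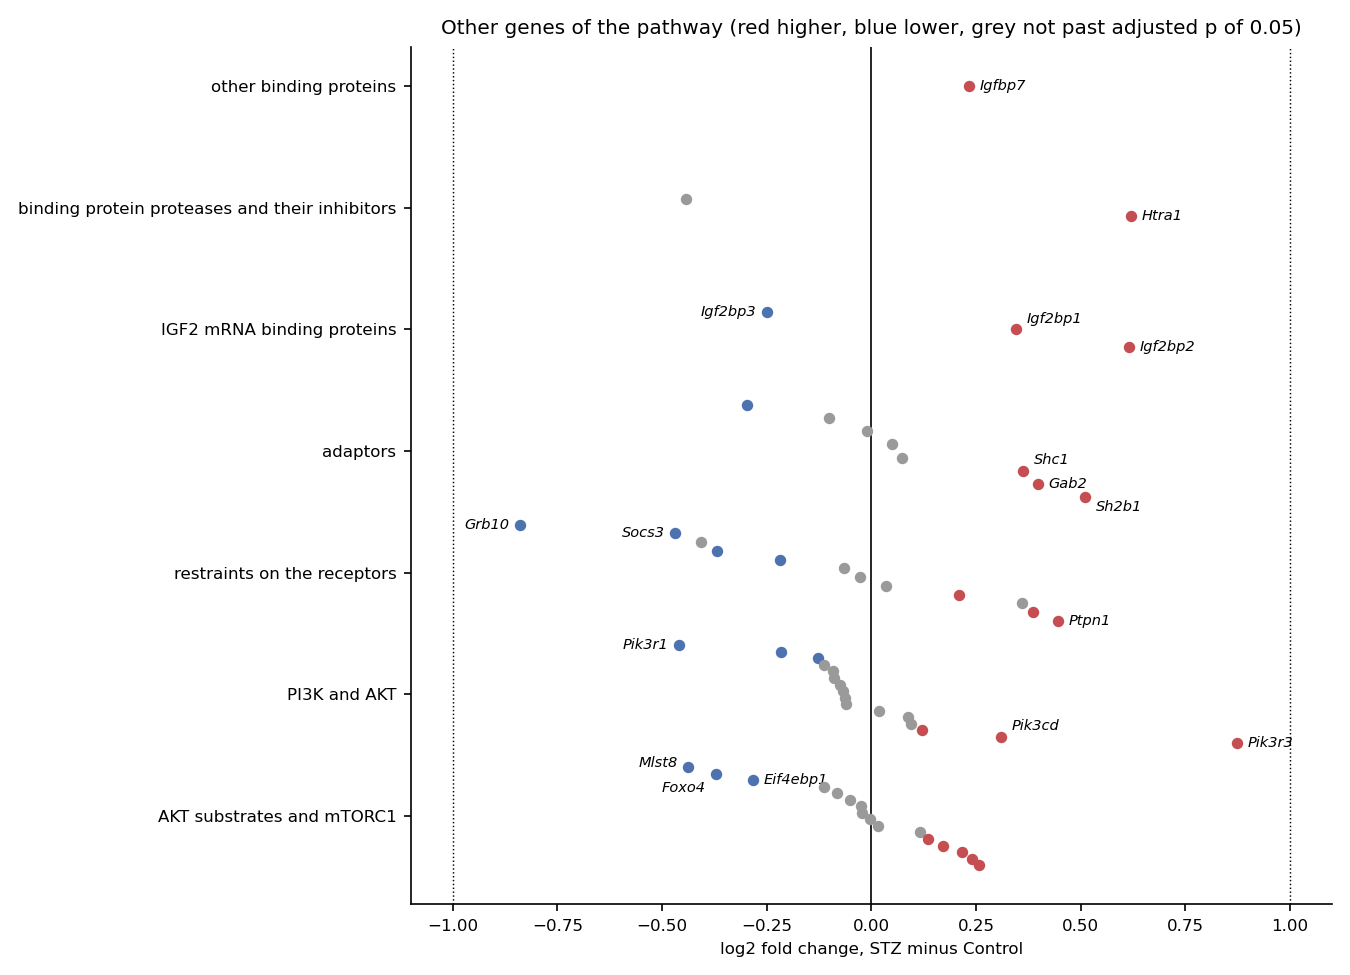
Log2 fold change between STZ and Control (x axis) of the 58 tested genes of the pathway list by role, 1 point a gene, in red for higher, blue for lower and grey for not past an adjusted p-value of 0.05, with dotted lines at an absolute log2 fold change of 1 and with the genes named by rule labelled. Every role with more than 2 tested genes holds points on both sides of 0, and Pik3r3 (0.87) and Grb10 (-0.84) lie farthest out.

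Of 16 genes of PI3K and AKT, 3 rose, 3 fell and 10 did not pass the test. That is 37.5% called, against 50.9% of all genes tested. Of the 3 regulatory subunit genes Pik3r1, Pik3r2 and Pik3r3, whose products bind phosphorylated IRS proteins, 1 rose, 1 fell and 1 did not pass the test. Pik3r3, encoding p55-gamma, had 960, 972 and 984 normalized counts in Control and 1741, 1771 and 1829 in STZ, a log2 fold change of 0.87 with an edgeR standard error of 0.05 and an adjusted p of 5.23e-20. Pik3r1, encoding p85-alpha, had 1322, 1331 and 1294 in Control and 996, 955 and 920.4 in STZ, a log2 fold change of -0.46 with an edgeR standard error of 0.05 and an adjusted p of 8.98e-11. The groups were separate in both genes. Pik3r2, encoding p85-beta and named here after its values had been seen, had 1551, 1552 and 1452 normalized counts in Control and 1407, 1562 and 1364 in STZ, and its groups overlapped (log2 fold change -0.07, 95% confidence interval -0.17 to 0.02, adjusted p = 0.204 by edgeR). The ratio of Pik3r3 to Pik3r1 reads was 0.739 ± 0.0188 in Control (SD, n = 3) and 1.86 ± 0.120 in STZ (SD, n = 3), 2.52-fold higher (two-sided exact permutation p = 0.1, the smallest possible here, adjusted 0.167). The catalytic subunit gene Pik3cd rose with a log2 fold change of 0.31.

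Farther down, 5 of 16 AKT substrates and mTORC1 genes rose, 3 fell and 8 did not pass the test, again 50% called against 50.9% of all genes tested. The 5 that rose, named here after their values had been seen, had smaller log2 fold changes. These were 0.26 for Rheb, 0.24 for Rps6kb2, 0.22 for Tsc2, 0.17 for Gsk3a and 0.13 for Rptor. The 3 that fell were Mlst8, a subunit of both mTOR complexes, Foxo4, a FoxO transcription factor held out of the nucleus by AKT, and Eif4ebp1, the translation repressor inactivated by mTORC1. Mlst8 fell from 246 ± 19.9 to 183 ± 14.5 normalized counts (SD, n = 3 each), a log2 fold change of -0.44. The log2 fold changes of Foxo4 and Eif4ebp1 were -0.37 and -0.28, and all 3 had adjusted p-values of 0.000167 or less by edgeR. Control and STZ libraries did not overlap in any of these 3 genes. Phosphorylation, by which most of this pathway is controlled, was not measured by these counts.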

How the data were processed

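RNA of NRK-52E cells was made into TruSeq stranded mRNA libraries and sequenced. The authors used STAR 2.7.10a to align reads to Rnor6 and featureCounts to count those mapped uniquely, and deposited the raw counts of each sample. Annotation and strand setting are not given in the sources used here. From these counts, TMM scaling, filterByExpr and the quasi-likelihood test (STZ against Control, all 6 samples, no covariate, Benjamini-Hochberg adjustment over 11870 genes) came from edgeR 4.0.16 (R 4.3.3). That test moderates the spread of each gene toward that of all genes tested, with 41.5 degrees of freedom (prior plus residual). A gene with a larger spread than most, such as Igfbp4, is therefore given a smaller one than its own libraries show. Normalized counts are reads scaled to the mean library size, and standard errors were derived from the log2 fold change and its F statistic. Alternatives used DESeq2 1.42.0 and limma 3.58.1, other scalings, filters, thresholds, a replicate block and leaving out each sample.

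The members and lists were chosen with earlier results of these data known. All members are named and, of each pathway list, the 3 largest changes past the test (or fewer) among genes averaging 50 or more normalized counts; ligands and other binding proteins are all named, those with no row as not analysed here. In simulated counts (11870 genes), 98 of 100 genes changed by a log2 value of 1 and 83 of 100 changed by 0.5 were recovered. In the same simulation 12 unchanged genes were called. Every simulated gene had the same coefficient of variation beyond counting error, 3.25%, and far fewer genes were changed than were called in the data. Recovery of genes with a larger spread, such as Igfbp4, was therefore not tested. Promoter sequences and neighbouring genes came from RefSeq (GRCr8). Matplotlib 3.10.9 drew the figures.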

Additional observations from a re-analysis of the deposited data

How the results depend on the processing

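The calls of Irs1, Igfbp4 and Igfbp5 kept their direction and an adjusted p-value under 0.05 under 3 other scalings, 2 other filters, DESeq2's Wald test, limma-voom, the replicate block, and when any 1 of the 6 samples was dropped. Without Control replicate 3, 3 members were lower, Igfbp2 being added. With an absolute log2 fold change over 1 also required, 0 members were higher and 0 lower, 0 genes of the pathway list were higher and 0 lower, and of all genes tested 268 were higher and 132 lower, because that threshold asks for a larger change. Control and STZ share replicate numbers. The deviations of same-numbered samples from their group means had correlations of 0.0314, -0.0291 and 0.0679 over 11297 genes. Control 3 and STZ 3 correlated best with each other, whereas STZ 2 correlated best with Control 1 (0.0537). These small values cannot show whether same-numbered samples were handled together, which the sources used here do not say. With the replicate block, 1 member was higher and 2 lower, as without it, 18 genes of the list were higher and 12 lower, and 3139 of all genes were higher and 3060 lower. Scalings moved the median log2 fold change of all genes by -0.03 at most, with library size only. Depth limits the genes with few reads, Igfbp3 and the ligands above all.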

Other observations

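The 4 tested binding protein genes were all lowest in Control replicate 3 among the Control libraries. As a percent of the Control mean, the deviation in that library was -26.5% for Igfbp4, -18.5% for Igfbp2, -13.3% for Igfbp6 and -6.73% for Igfbp5, whereas it was 11.6% for Igf1r, 5.95% for Insr and 2.84% for Igf2r. In STZ replicate 3 the deviations were -11.1% for Igfbp2, -3.86% for Igfbp6 and -1.83% for Igfbp4, but 3.23% for Igfbp5. The coefficient of variation over the 3 Control libraries was 24.2% for Igfbp4 and 16.7% for Igfbp2, against 2.78% for Igf2r. Other tested members lay between, such as Igfbp6 (11.7%), Irs1 (11.4%), Igf1r (10.2%) and Igfbp5 (5.92%). Counting error is larger for Igfbp4, with 80 to 113 reads in Control, than for Igf2r, with 4521 to 5778. Igfbp2, with 894 to 1033 reads in Control, and Igfbp6, with 1709 to 1772, also had more reads than Igfbp4. The cause of the spread was not tested.

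Over the 6 samples, the genes whose log2 normalized counts followed Igfbp4 most closely, out of 9895 ranked, were Fbxl7 (Pearson r = 0.994), Rmc1 (0.993) and Alg3 (0.992). Those closest to Irs1 were Eps15 (0.997), the clone-named AABR07005779.1 (0.997) and Fyco1 (0.997). Between STZ and Control, the 3 genes closest to Irs1 were lower by edgeR's test (adjusted p = 0.00747, 9.28e-06 and 0.00368 in the same order). Of those closest to Igfbp4, Fbxl7 was higher (adjusted p = 0.0229) and Rmc1 and Alg3 did not pass the test (adjusted p = 0.0719 and 0.187). The 6 samples include both groups, so a correlation holds the difference between groups and the variation within them. Because the genes were picked by it, their adjusted p-values between the groups partly restate the choice and are not separate evidence. A correlation over 0.9 was reached by 234 genes for Igfbp4 and 754 for Irs1.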
